A study of Mus musculus with 18 samples.

Results

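The 36 mitosis and spindle genes described here encode the proteins that carry a cell from entry into mitosis to cytokinesis. They were chosen by name, and their protein-coding transcripts were summed by gene symbol. All 36 were among the 22305 gene symbols with a protein-coding transcript, and all 36 passed the filter on low values that left 10400 genes for testing. RNA was sequenced from mouse oligodendrocyte progenitor cells (OPCs), grown as clonal lines from primary neural stem cells. The 3 control clones were D7, D3 and E8, and the 3 Thap1 null clones were 3F, D6 and 7F. THAP1 is a DNA-binding protein with a zinc finger, and the series concerns its part in oligodendrocyte development. OPCs were kept in growth medium with PDGF-AA, the mitogen of these cells, and were then moved to differentiation medium with thyroid hormone (T3) and sampled after 2 and 4 days in vitro (DIV2 and DIV4). Each clone gave 1 library at each stage, 18 in all, so that each of the 6 groups of genotype and stage held 3 clones. Each line is a single clone, the labels used here do not say how the null allele was made, and p-values measure the spread between these clones.

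Entry into mitosis is driven by the kinase CDK1 with cyclins A and B. Aurora and Polo-like kinases then build the spindle, kinetochores tie each chromosome to microtubules, and the spindle checkpoint holds back the anaphase-promoting complex until every chromosome is attached. Transcripts of these genes rise together in G2 and M phase and are low in resting cells. The DREAM and MuvB complexes, B-MYB and FOXM1 regulate them through a promoter element named the cell cycle genes homology region (CHR), often beside CCAAT boxes bound by NF-Y. OPCs divide in response to PDGF and leave the cell cycle as they become oligodendrocytes. In bulk RNA, fewer dividing cells and less RNA per dividing cell cannot be told apart.

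Sequencing depth cannot be read from TPM, a length-corrected share of each library's transcripts, so no counting error is given. Protein-coding transcripts held 5.05% to 9.003% of the deposited TPM in the 3 control OPC libraries and 19.1% to 38.8% in the other 15. Levels below are therefore rescaled TPM, the protein-coding TPM divided by a median-of-ratios factor, 0.127 to 0.324 in control OPCs and 0.727 to 2.05 elsewhere. Thap1 coding transcripts stood at 3.32 to 4.38 in control OPCs and 0.482 to 0.772 in null OPCs. Their fitted difference was -1.63 on the log2 scale (SE 0.19, adjusted p = 0.000116, limma). Summed with its retained-intron transcript, Thap1 was instead 0.76 higher in null OPCs. The 9 OPC markers checked were all at 1 or more in all 6 OPC libraries, and their summed level was 489 to 948. Microglial markers summed to at most 4.61 in any library. Several values below move with the D3 OPC library, which is given apart.

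The promoters of these genes carry the elements named above, and 8 of them are shown because they differ in how many they hold. RefSeq promoter windows (GRCm38.p6, 250 bases before to 50 after the annotated start) matched 29 of the 36 members with 31 windows. Prc1 and Ect2 had more than 1 window, and Ccna2, Cdc25c, Spc24, Aurkb, Incenp, Tpx2 and Kif20a had none. Each line gives 200 bases 5′ to 3′, from 170 before the start to 30 after it. Capitals mark CCAAT and its reverse complement ATTGG, and the CHR letters, wherever the whole match lies inside the stretch. The CHR was searched as TTTGAA with its reverse complement TTCAAA. The form TTTAAA, which reads the same on both strands, was counted too. Cdk1, Ccnb2 and Aurka hold several boxes and a CHR. Cdc20, Prc1 and Kif23 hold a CHR beside at least 1 box. Anln, the member whose level changed least, holds a CHR and no box, and Mad2l1 holds neither.
Cdk1 (chr10:69352883-69353082, minus strand): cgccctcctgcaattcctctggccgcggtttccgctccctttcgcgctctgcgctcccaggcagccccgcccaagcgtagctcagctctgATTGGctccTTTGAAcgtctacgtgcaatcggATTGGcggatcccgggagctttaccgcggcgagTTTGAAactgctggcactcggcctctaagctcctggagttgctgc
Ccnb2 (chr9:70421525-70421724, minus strand): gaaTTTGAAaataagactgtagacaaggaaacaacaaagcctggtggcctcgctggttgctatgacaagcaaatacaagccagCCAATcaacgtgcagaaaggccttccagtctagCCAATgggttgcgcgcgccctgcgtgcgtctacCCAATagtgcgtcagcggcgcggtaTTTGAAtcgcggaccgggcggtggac
Aurka (chr2:172370541-172370740, minus strand): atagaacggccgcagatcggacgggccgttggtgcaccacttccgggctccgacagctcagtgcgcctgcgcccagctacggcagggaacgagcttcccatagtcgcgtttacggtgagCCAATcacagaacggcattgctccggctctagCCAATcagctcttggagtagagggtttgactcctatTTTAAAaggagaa
Cdc20 (chr4:118437314-118437513, minus strand): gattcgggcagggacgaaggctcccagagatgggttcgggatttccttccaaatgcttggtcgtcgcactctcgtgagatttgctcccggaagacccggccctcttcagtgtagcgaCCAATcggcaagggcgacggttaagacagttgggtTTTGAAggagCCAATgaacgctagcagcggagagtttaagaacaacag
Prc1 (chr7:80294281-80294480, plus strand): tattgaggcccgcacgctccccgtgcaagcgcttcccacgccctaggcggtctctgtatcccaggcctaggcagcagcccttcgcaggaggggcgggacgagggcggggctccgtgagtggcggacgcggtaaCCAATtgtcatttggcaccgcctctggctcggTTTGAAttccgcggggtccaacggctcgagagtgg
Kif23 (chr9:61946770-61946969, minus strand): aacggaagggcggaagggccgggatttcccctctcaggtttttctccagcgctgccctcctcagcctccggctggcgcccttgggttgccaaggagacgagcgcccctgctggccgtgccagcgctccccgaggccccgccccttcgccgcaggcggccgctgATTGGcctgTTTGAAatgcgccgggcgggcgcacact
Anln (chr9:22389177-22389376, minus strand): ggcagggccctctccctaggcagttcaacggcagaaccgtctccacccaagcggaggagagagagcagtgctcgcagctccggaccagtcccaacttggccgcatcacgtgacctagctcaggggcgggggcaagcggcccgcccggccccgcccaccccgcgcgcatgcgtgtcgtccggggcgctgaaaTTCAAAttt
Mad2l1 (chr6:66535051-66535250, plus strand): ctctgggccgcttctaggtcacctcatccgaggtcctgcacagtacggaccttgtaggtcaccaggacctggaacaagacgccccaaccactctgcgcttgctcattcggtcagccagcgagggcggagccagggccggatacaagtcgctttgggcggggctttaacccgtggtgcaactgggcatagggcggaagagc

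Across the full windows, CCAAT in either orientation was present in 25 of 31 member windows, 80.6%, against 37.4% of all 32851 windows and 38.9% of the 10101 windows of genes tested. A CHR match was present in 27 of 31, 87.1%, against 27.6% of all windows and 18.6% of those of genes tested. In only the 250 bases before the start, 16 of 31 held a CHR, 51.6%, against 25.2% of all windows and 16.9% of those of genes tested. Both were present in 23 of 31, 74.2%, against 10.7% and 7.56%, and before the start in 14 of 31, 45.2%, against 8.78% and 6.40%. A pair of CCAAT boxes in the same orientation with starts 31 to 33 bases apart, a spacing chosen after the sequences were seen, was present in 7 of 31 member windows, or 22.6%, against 0.795% of all windows and 1.56% of those of genes tested. The Cdk1, Ccnb2 and Aurka windows above each hold such a pair. A CCAAT and a CHR match overlap in the Cdca8 window and in no other member window. By gene, 21 of the 29 had both, 4 had no CHR (Bub1, Mad2l1, Nek2 and Nuf2), and 6 had no CCAAT (Anln, Birc5, Kif2c, Mad2l1, Ndc80 and Nuf2). In 22 of the 25 genes with a CHR the match nearest the start lay within 50 bases of it. Over the 31 windows, 42 of the 58 CCAAT boxes lay within 100 bases of the start. The windows of Prc1 overlap, as do those of Ect2, and boxes they share are counted in each. These are matches of letters and do not show binding, and a window without a match says only that these letters are not in it.

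**Figure D1:**
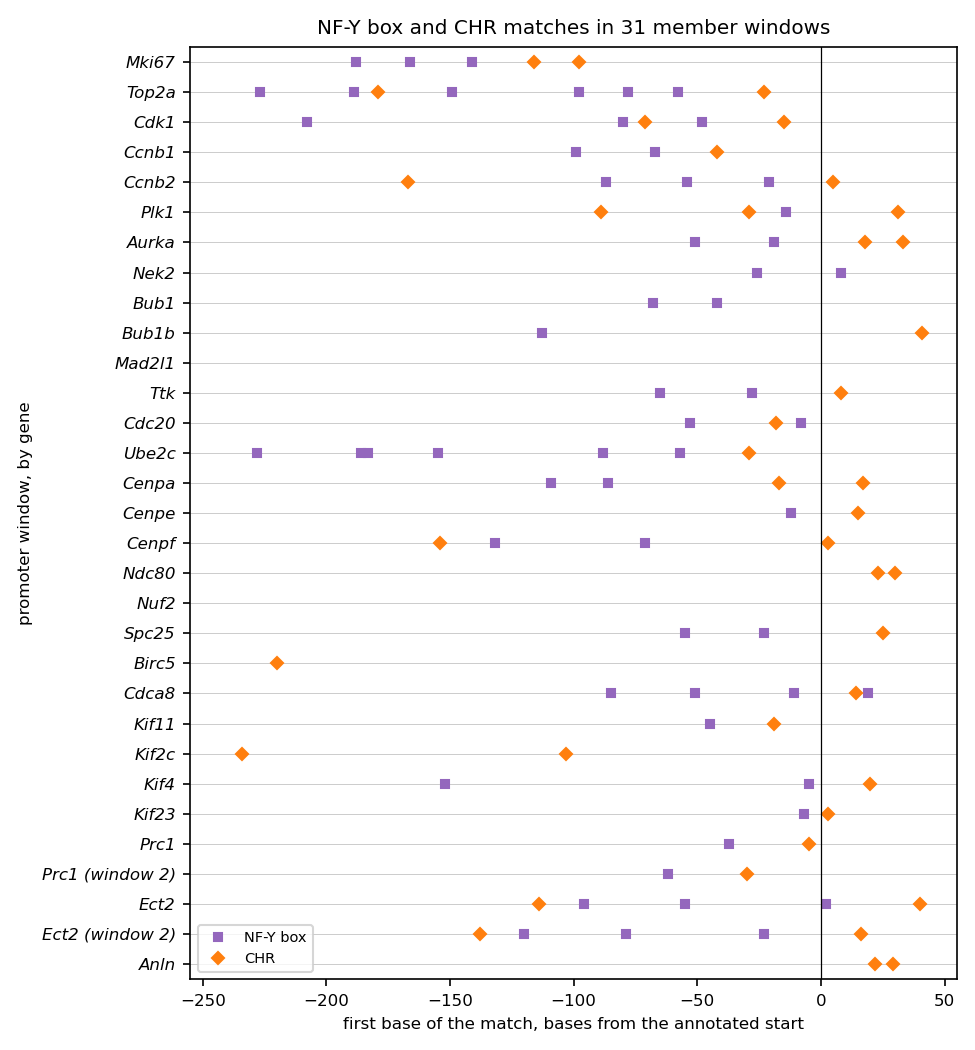
Position of CCAAT (NF-Y box, squares) and CHR (diamonds) matches in the 31 RefSeq windows of 29 members. The x axis gives bases from the annotated start and each row is 1 window. Most matches sit within 100 bases of the start, and Mad2l1 and Nuf2 have none.

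Summed over the 36 members, clones D7 and E8 had 1155 and 935 rescaled TPM as OPCs. The sums in null OPCs were 959 in 3F, 1049 in D6 and 939 in 7F. Control D3 OPCs had 93.0, between 10.05-fold and 12.4-fold below those other clones of its genotype. The same clone was not low later. At DIV2 it had 40.2, above D7 at 23.5 and E8 at 24.8, and at DIV4 it had 72.7, between D7 at 69.3 and E8 at 109. All 36 members were low in D3 OPCs, from 3.04% (Aurkb) to 14.0% (Cdc25c) of the mean of D7 and E8, with a median of 9.40%. Markers of OPCs summed to 948 in D3, the highest of the 6 OPC libraries, and those of oligodendrocytes to 663, also the highest, against 112 to 473 in the other 5. Genes of S phase were low there too, at 75.0 against 344 to 511. The cyclin D1 gene Ccnd1 stood at 13.6 in D3 OPCs and 44.1 to 128 in the other 5, and the CDK inhibitor gene Cdkn1b at 31.2 against 11.8 to 19.0. The part of these values in the low member levels was not tested.

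Every null clone and clones D7 and E8 held little of these transcripts by DIV2. The sum was 2.04% of its own OPC value in D7 and 2.65% in E8, a 49.1-fold and a 37.7-fold difference. In the null clones it was 5.08% in 3F, 10.6% in D6 and 7.52% in 7F. At DIV4 the sum was 6.01% of its OPC value in D7, 11.7% in E8, 3.28% in 3F, 5.31% in D6 and 7.09% in 7F. Clone D3, which started low, had 43.2% of its own OPC sum at DIV2 and 78.1% at DIV4. The group means were 727 ± 560 (SD, n = 3) in control OPCs and 982 ± 58.6 in null OPCs, with D3 as the low control value. They were 29.5 ± 9.29 in control and 76.8 ± 31.6 in null at DIV2, and 83.8 ± 22.2 and 51.3 ± 17.9 at DIV4 (SD, n = 3 each). The sum was thus lowest at DIV2 in each control clone and at DIV4 in each null clone.

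**Figure D2:**
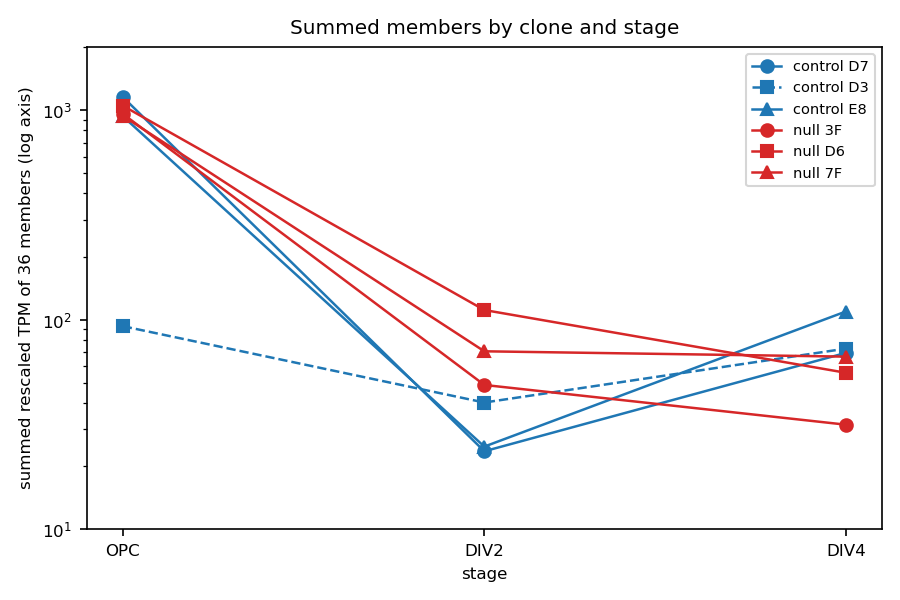
Summed rescaled TPM of the 36 members (log axis) for each clone at OPC, DIV2 and DIV4; blue lines are control clones and red lines null clones, with control D3 dashed. Control D3 starts at 93.0 where the other 5 clones start at 935 to 1155. All control lines go up from DIV2 to DIV4 and all null lines go down.

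In the fit to log2(rescaled TPM + 1), all 36 changes from OPC to each later stage were negative in each genotype. Of these, 35 were called lower, and Anln was the exception each time. The median member change was -2.69 at DIV2 and -2.02 at DIV4 in control clones, and -2.98 and -3.29 in null clones. Over all 10400 genes the medians were 0.03, 0.02, 0.01 and 0.01. Genes called lower (limma, Benjamini-Hochberg adjusted p under 0.05 over all genes) made up 18.7% at control DIV2, 17.7% at control DIV4, 15.6% at null DIV2 and 18.7% at null DIV4. In all 36 members, every null OPC library lay above every null DIV2 and DIV4 library, as it did in 20.0% of all genes. Control OPCs lay above control DIV2 without overlap in 33 members, all but Spc25, Incenp and Anln, against 21.0% of all genes. They lay above control DIV4 in 12 members, against 15.9%, and D3 was the lowest control OPC library in each of the others. The DIV2 and DIV4 comparisons of a genotype share its OPC libraries. Without the D3 OPC library all 36 members were called lower in control clones, with medians of -3.73 at DIV2 and -2.997 at DIV4, against 21.3% and 20.8% of all genes.

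The control DIV4 calls changed with the libraries and the scale used. A fit to the control OPC and DIV4 libraries alone called 0 of 36 members, and 1.16% of all genes lower (27 members at an unadjusted p under 0.05, smallest adjusted p = 0.0839, limma). On deposited TPM 0 members were lower and 1, Anln, was higher (1 at an unadjusted p under 0.05), with a member median of 0.12 where the median of all genes was 2.03 and 0.0469% of them were called lower. On that scale 10102 of the 10656 genes tested were called higher, so a rise was the rule there. The fit without clone D7 called 3 lower at control DIV4, with 9.88% of all genes, and the fit without E8 called 14, with 13.4%.

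**Figure D3:**
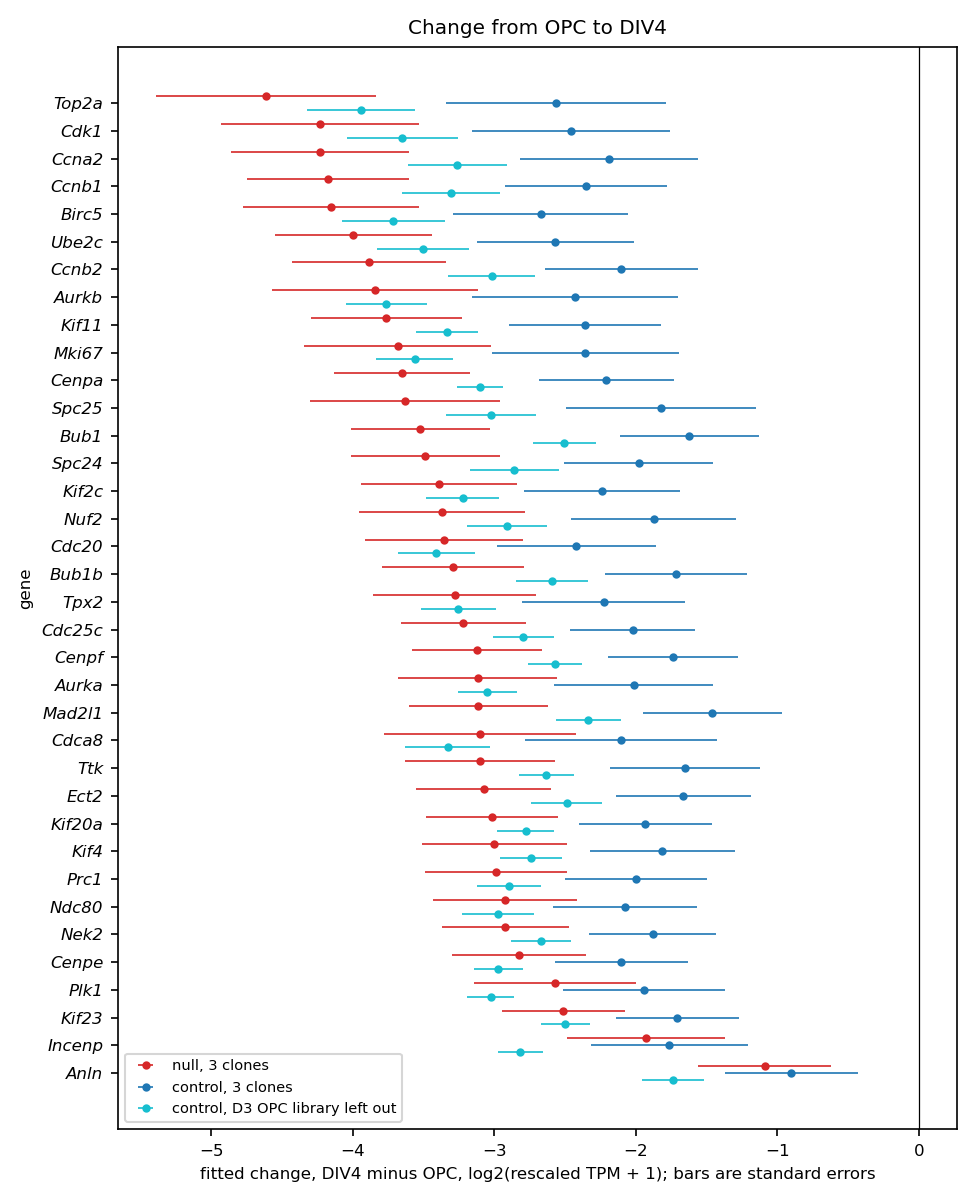
Fitted change from OPC to DIV4 for each member on the log2(rescaled TPM + 1) scale, with standard errors, for null clones (red), control clones (blue) and control clones with the D3 OPC library left out (cyan). All points lie below 0, and Anln lies nearest to it in null clones. Leaving out the D3 OPC library moves each control point to a larger fall.

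Mki67 and Top2a mark dividing cells and serve chromosome structure. Mki67 encodes the Ki-67 protein that coats mitotic chromosomes. Mki67 stood at 25.9, 1.41 and 31.1 in control OPCs (clones D7, D3 and E8, here and below) and 30.2, 17.6 and 15.6 in null OPCs (3F, D6 and 7F). Mki67 at DIV2 stood at 0.276, 0.736 and 0.370 in control and 0.570, 1.51 and 1.05 in null clones, and at DIV4 1.12, 1.70 and 1.70 and 0.291, 0.760 and 0.989. Both OPC groups lay above every later library except for D3, whose OPC value was within the DIV4 range. The fitted change was -2.36 at control DIV4 (SE 0.66, adjusted p = 0.0122) and -3.68 at null DIV4 (SE 0.66, adjusted p = 0.000516, limma). Top2a encodes topoisomerase IIα, which untangles sister DNA. Top2a was at 145, 5.51 and 88.0 in control OPCs and 151, 149.7 and 141 in null OPCs. Top2a at DIV2 was at 1.55, 3.06 and 1.72 in control and 4.56, 12.7 and 7.85 in null clones, and at DIV4 5.32, 5.46 and 9.07 and 2.80, 6.20 and 7.08. It was the highest member in 5 of the 6 OPC libraries, and at DIV2 all null clones lay above all control clones. Top2a had the largest fitted fall of all members in null clones, -4.61 at DIV4 (SE 0.78, adjusted p = 0.000333), and fell by 2.56 in control clones (SE 0.78, adjusted p = 0.0185, limma).

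Among the 8 genes of mitotic entry, Cdk1 encodes the mitotic kinase itself. Cdk1 measured 70.3, 4.48 and 58.9 in control OPCs and 54.3, 69.2 and 58.4 in null OPCs. Cdk1 at DIV2 measured 1.13, 2.76 and 1.36 in control and 1.95, 7.39 and 3.57 in null clones, and at DIV4 3.64, 3.20 and 6.23 and 1.19, 2.69 and 3.29. The null fall at DIV4 was -4.23 (SE 0.70, adjusted p = 0.000279, limma), and the same fall was fitted for Ccna2, the cyclin A2 gene (SE 0.63, adjusted p = 0.000123, limma). Ccna2 stood at 51.3, 3.62 and 34.4 in control OPCs and 49.3, 49.9 and 46.7 in null OPCs. Ccna2 at DIV2 stood at 0.825, 1.70 and 0.939 in control and 1.92, 5.34 and 3.11 in null clones, and at DIV4 2.38, 3.01 and 5.68 and 0.779, 2.15 and 2.30. Null clone D6 was the highest DIV2 library for both genes, and control E8 the highest at DIV4. Ccnb1 encodes cyclin B1, the main partner of CDK1. Ccnb1 was at 76.2, 8.38 and 59.5 in control OPCs and 71.0, 80.5 and 73.0 in null OPCs. Ccnb1 at DIV2 was at 0.768, 2.05 and 0.940 in control and 2.73, 8.35 and 3.65 in null clones, and at DIV4 4.95, 5.03 and 8.15 and 2.11, 3.61 and 4.12. In control clones all DIV4 values lay above all DIV2 values, and its fitted difference between those stages was the largest of any member, 1.66 (SE 0.57), with an adjusted p of 0.271 (limma). Of its 31-base words, 27.7% are shared with the pseudogene Ccnb1-ps, so its level is uncertain. Plk1, the Polo-like kinase gene, shares 14.8% with Plk-ps1 and is uncertain in the same way. Plk1 measured 17.5, 0.813 and 15.1 in control OPCs and 9.47, 10.3 and 8.32 in null OPCs. Plk1 at DIV2 measured 0.171, 0.429 and 0.469 in control and 0.554, 1.10 and 0.767 in null clones, and at DIV4 1.05, 1.13 and 1.18 and 0.531, 0.689 and 1.03. D7 and E8 lay above all null clones at the OPC stage. Ccnb2 (cyclin B2), Cdc25c (a phosphatase that activates CDK1), Aurka (Aurora kinase A, of the centrosomes) and Nek2 (a kinase that separates centrosomes) ran in parallel. Their OPC values outside D3 ranged from 8.98 (Nek2 in E8) to 41.0 (Ccnb2 in D6), and their control DIV2 values from 0.129 (Cdc25c in E8) to 1.23 (Aurka in D3).

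Of the 4 spindle checkpoint genes, Bub1b encodes BUBR1, which holds CDC20 inactive. Bub1b stood at 20.2, 2.09 and 16.4 in control OPCs and 14.4, 16.1 and 15.4 in null OPCs. Bub1b at DIV2 stood at 1.24, 0.851 and 0.517 in control and 0.500, 1.45 and 1.26 in null clones, and at DIV4 3.27, 1.52 and 1.99 and 0.338, 0.691 and 1.02. Null clones lay below control clones at DIV4, and D7 was the highest control clone at both later stages. Bub1, a kinase of the same checkpoint, had 1 of the 3 smallest falls in control clones. Bub1 was at 12.9, 1.07 and 11.2 in control OPCs and 16.2, 17.3 and 14.9 in null OPCs. Bub1 at DIV2 was at 0.142, 0.463 and 0.214 in control and 0.443, 1.45 and 1.03 in null clones, and at DIV4 0.933, 1.28 and 1.72 and 0.211, 0.588 and 0.710. Its fitted change at control DIV4 was -1.62 (SE 0.49, adjusted p = 0.0183, limma). Mad2l1 encodes MAD2, a protein of the spindle checkpoint. Mad2l1 measured 25.3, 2.49 and 16.6 in control OPCs and 25.5, 33.02 and 26.2 in null OPCs. Mad2l1 at DIV2 measured 1.77, 2.43 and 1.83 in control and 2.50, 4.07 and 3.49 in null clones, and at DIV4 2.56, 2.78 and 4.73 and 2.20, 2.13 and 2.78. D3 stayed between 2.43 and 2.78 across stages in this gene, and the fitted control change at DIV4 was -1.46 (SE 0.49, adjusted p = 0.0299, limma). On deposited TPM the control DIV4 change of both genes was positive, as it was in 25 of the 36 members. Ttk, the MPS1 kinase gene that starts the checkpoint signal, was at 8.87 to 14.3 in OPCs outside D3, and was higher in D3 at DIV4 (0.945) than in D3 OPCs (0.472).

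Cdc20 and Ube2c belong to the anaphase-promoting complex, CDC20 as its activator and UBE2C as its ubiquitin-conjugating enzyme. Cdc20 stood at 62.6, 6.13 and 48.0 in control OPCs and 33.4, 41.6 and 33.01 in null OPCs. Cdc20 at DIV2 stood at 1.12, 1.65 and 1.16 in control and 1.96, 4.58 and 3.58 in null clones, and at DIV4 3.75, 3.70 and 5.49 and 1.63, 2.71 and 3.77. D7 and E8 lay above all null OPCs, and all control DIV2 values lay below all null ones. Cdc20 shares 25.5% of its 31-base words with Gm7856 and is uncertain. Ube2c was at 66.7, 8.41 and 62.8 in control OPCs and 49.4, 61.6 and 55.4 in null OPCs. Ube2c at DIV2 was at 1.18, 1.71 and 1.22 in control and 1.87, 6.77 and 3.38 in null clones, and at DIV4 4.44, 4.74 and 5.25 and 1.49, 2.53 and 3.97. The Ube2c change at control DIV4 was -2.57 (SE 0.56, adjusted p = 0.00265), among the 3 largest, and the fitted difference between DIV2 and DIV4 was 1.30 (SE 0.56, adjusted p = 0.394, limma).

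Centromere and kinetochore genes numbered 7. Cenpf encodes a large protein of the outer kinetochore and Ndc80 the microtubule-binding subunit of the NDC80 complex. Cenpf measured 9.80, 1.09 and 11.9 in control OPCs and 12.8, 12.5 and 11.7 in null OPCs. Cenpf at DIV2 measured 0.166, 0.442 and 0.174 in control and 0.431, 1.13 and 0.915 in null clones, and at DIV4 0.817, 1.08 and 1.09 and 0.233, 0.642 and 0.768. Ndc80 stood at 15.7, 1.87 and 19.6 in control OPCs and 12.7, 14.5 and 13.8 in null OPCs. Ndc80 at DIV2 stood at 0.251, 0.399 and 0.419 in control and 0.599, 1.29 and 0.760 in null clones, and at DIV4 0.619, 1.68 and 2.05 and 0.475, 1.05 and 1.38. For both, control DIV4 lay above control DIV2 without overlap, and null Cenpf lay below control Cenpf at DIV4. Nuf2, Spc24 and Spc25 encode the partners of NDC80, Cenpa the centromeric histone H3 variant and Cenpe a kinetochore motor. Their OPC values outside D3 ranged from 9.14 (Cenpe in 7F) to 28.3 (Spc24 in D7), and in D3 OPCs from 1.02 (Cenpe) to 2.40 (Spc24). Spc24 in D3 was 1.002 at DIV2 and 0.996 at DIV4, and its other control clones were higher at DIV4. Spc25 in D3 was higher at DIV2 (1.26) than in D3 OPCs (1.1999). Of the Cenpa TPM in control OPCs, 63.7% lay in transcripts not annotated as protein coding, which the levels here leave out.

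The chromosomal passenger complex corrects wrong attachments and later guides cytokinesis, with Aurora B (Aurkb) as its kinase and survivin (Birc5), INCENP and borealin (Cdca8) as its other subunits. Aurkb was at 33.2, 0.905 and 26.2 in control OPCs and 20.6, 23.5 and 19.5 in null OPCs. Aurkb at DIV2 was at 0.364, 0.705 and 0.332 in control and 0.757, 2.30 and 1.07 in null clones, and at DIV4 1.15, 0.682 and 2.15 and 0.199, 0.689 and 0.809. D3 OPCs were 3.04% of the mean of D7 and E8, the lowest such value. Birc5 measured 78.9, 5.74 and 42.1 in control OPCs and 56.9, 62.2 and 57.4 in null OPCs. Birc5 at DIV2 measured 0.845, 1.53 and 0.639 in control and 2.21, 6.80 and 4.15 in null clones, and at DIV4 3.53, 2.97 and 3.97 and 1.11, 3.15 and 3.31. Birc5 had the largest fitted fall in control clones at DIV4, -2.67 (SE 0.62, adjusted p = 0.00412, limma). Incenp was the member of the complex with the smallest null fall. Incenp stood at 15.4, 1.03 and 19.1 in control OPCs and 8.13, 6.39 and 5.40 in null OPCs. Incenp at DIV2 stood at 0.987, 1.21 and 0.834 in control and 1.15, 1.42 and 1.22 in null clones, and at DIV4 1.42, 1.51 and 1.83 and 0.970, 0.870 and 1.12. Null OPCs and D3 OPCs lay below D7 and E8, and the fitted null change was -1.74 at DIV2 (SE 0.56, adjusted p = 0.0254) and -1.93 at DIV4 (SE 0.56, adjusted p = 0.0128, limma). Cdca8 ranged from 15.9 to 28.9 in OPCs outside D3 and was 1.196 in D3.

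Spindle motors and assembly factors are represented by Kif11 (the Eg5 motor that pushes the poles apart), Tpx2 (which activates Aurora A), Kif2c (a microtubule depolymerase) and Kif4 (a chromosome-bound motor). Kif11 was at 36.6, 3.84 and 34.6 in control OPCs and 26.0, 26.7 and 23.2 in null OPCs. Kif11 at DIV2 was at 0.367, 1.18 and 0.607 in control and 0.962, 1.46 and 0.993 in null clones, and at DIV4 1.82, 2.63 and 3.67 and 0.618, 1.23 and 1.001. Tpx2 measured 34.3, 3.26 and 35.7 in control OPCs and 26.7, 28.5 and 25.0030 in null OPCs. Tpx2 at DIV2 measured 0.742, 1.48 and 0.841 in control and 1.39, 3.62 and 2.30 in null clones, and at DIV4 2.20, 2.49 and 3.81 and 1.18, 1.94 and 2.62. The D3 OPC value lay above its own DIV4 value in both genes, while D7 and E8 lay far above theirs. Kif2c and Kif4 OPC values outside D3 ranged from 10.2 (Kif4 in 7F) to 21.8 (Kif2c in D7), and their DIV2 values from 0.227 (Kif4 in D7) to 1.99 (Kif2c in D6).

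Midzone and cytokinesis genes were Prc1 (which bundles midzone microtubules), Kif20a and Kif23 (motors of the midzone), Ect2 (which activates RhoA at the furrow) and Anln (anillin, a scaffold of the contractile ring). Prc1 stood at 40.4, 5.73 and 44.7 in control OPCs and 33.4, 39.1 and 35.6 in null OPCs. Prc1 at DIV2 stood at 1.47, 2.73 and 1.58 in control and 3.20, 5.01 and 2.75 in null clones, and at DIV4 4.58, 4.40 and 5.61 and 2.85, 5.0004 and 3.38. Prc1 was the highest of these 5 genes in every OPC library, and its null values at DIV2 and DIV4 overlapped. Kif23 was at 8.81, 0.818 and 8.07 in control OPCs and 6.82, 5.70 and 6.24 in null OPCs. Kif23 at DIV2 was at 0.111, 0.170 and 0.113 in control and 0.104, 0.532 and 0.499 in null clones, and at DIV4 0.465, 0.595 and 0.981 and 0.160, 0.276 and 0.378. Kif23 had 1 of the 3 smallest changes in null clones at DIV4, -2.51 (SE 0.44, adjusted p = 0.000401), and -2.41 at DIV2 (SE 0.44, adjusted p = 0.000747, limma). As a share of its own OPC level, though, Kif23 was close to the member median at null DIV4. It kept 2.34% in 3F, 4.84% in D6 and 6.07% in 7F, where the medians were 2.68%, 4.72% and 6.60%. At DIV2 in 3F its share, 1.53%, was the lowest of any member. Kif20a and Ect2 ranged from 9.06 (Ect2 in E8) to 18.3 (Kif20a in D7) in OPCs outside D3.

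Anln departed from the pattern of the other 35 members. Anln measured 10.5, 0.816 and 8.21 in control OPCs and 8.24, 7.33 and 7.79 in null OPCs. Anln at DIV2 measured 2.21, 2.10 and 1.63 in control and 6.76, 2.71 and 4.31 in null clones, and at DIV4 2.14, 1.94 and 2.20 and 2.99, 3.32 and 3.07. At DIV2 all null clones lay above all control clones, and D3 had 257.5% of its own low OPC value. It kept 20.9% of the OPC value in D7 and 19.8% in E8 at DIV2, where no other member kept more than 7.01% and 11.0%. In the null clones it kept 82.0% in 3F, 36.9% in D6 and 55.4% in 7F, where the next highest member, Incenp, kept at most 22.6%. The fitted change was -0.96 at control DIV2 (SE 0.47, adjusted p = 0.116), -0.90 at control DIV4 (adjusted p = 0.144), -0.72 at null DIV2 (adjusted p = 0.264) and -1.09 at null DIV4 (adjusted p = 0.0795, limma). Without the D3 OPC library it fell by 1.80 at control DIV2 (adjusted p = 1.77e-05, limma) and by 1.74 at DIV4, and in a fit to null libraries alone it fell at both stages. Anillin is also known as a scaffold for septin filaments in the myelin sheath of mature oligodendrocytes. The oligodendrocyte marker sum was 3087 to 3497 in null and 3474 to 6239 in control clones at DIV2. Its part in the Anln level was not tested.

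**Figure D4:**
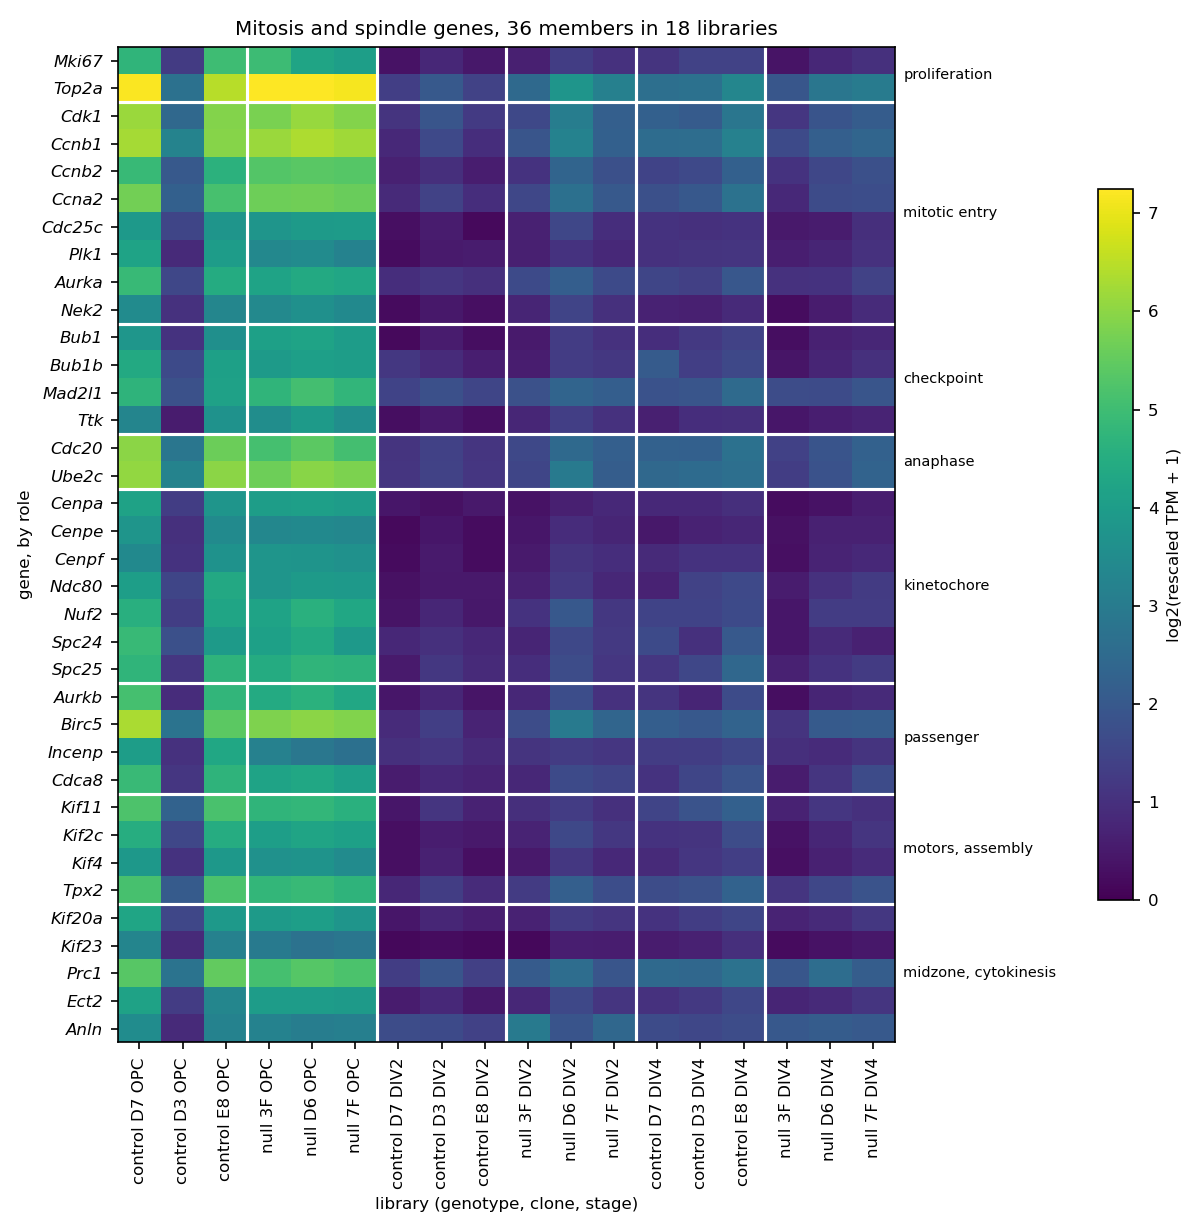
Level of each member in each library, as log2(rescaled TPM + 1), with genes grouped by role (rows) and libraries by genotype and stage (columns, white lines between groups). Control D3 OPC is dark beside the other 5 OPC libraries, and Top2a is the brightest row. Anln in the bottom row keeps its level best at DIV2.

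Between DIV2 and DIV4 the sum was higher at DIV4 in all 3 control clones, by 1.56 in D7, 0.85 in D3 and 2.14 in E8 on the log2 scale. It was lower at DIV4 in all 3 null clones, at -0.63 in 3F, -0.99 in D6 and -0.08 in 7F. Control DIV4 lay above control DIV2 without overlap in 32 members, all but Spc24, Spc25, Aurkb and Anln, against 6.89% of all genes. Several of the 32, among them Kif23, Cenpf, Plk1 and Bub1, were under 1 rescaled TPM in every control DIV2 library. Their means passed the filter through their OPC levels. Counting error at such values is unknown, and the share of all genes is not matched for level. By clone, 33 members were higher at DIV4 in 3 of 3 control clones (17.3% of all genes), 18 were lower in 3 of 3 null clones (35.9%), and 16 did both (2.36%). Null DIV4 lay below null DIV2 without overlap in 3 members, Aurka, Ttk and Incenp, against 23.2% of all genes. No member passed the test in either genotype. In control clones 36 of 36 fitted changes were positive, with a median of 0.78, and 3 had an unadjusted p under 0.05, with a smallest adjusted p of 0.271, where 0.25% of all genes were called. In a fit to those 6 libraries alone 33 had an unadjusted p under 0.05, as 9.37% of all genes did, and on deposited TPM 22 did, as 6.46% of all genes did, with 0 called in either. Without D3, E8 or D7 the number was 33, 0 or 1. In null clones 34 of 36 were negative, with a median of -0.28, and 0 had an unadjusted p under 0.05, where 2.88% of all genes were called. The difference between the genotypes' changes was negative in 36 of 36, with a median of -1.07, and called in 0 (2 at an unadjusted p under 0.05), as in 0.0% of all genes (limma). In a fit to the DIV2 and DIV4 libraries alone 34 members and 9.68% of all genes had an unadjusted p under 0.05 for this difference, with a smallest adjusted p of 0.306 over the members, and without D3, E8 or D7 the number of members was 33, 0 or 1. The shares of all genes in the fits without 1 clone are not given here. Because each genotype's members share their libraries, these counts are not independent of each other.

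Marker sums at DIV4 also differed among the control clones. The neural stem cell marker sum was 105 in D7, 660 in D3 and 911 in E8, against 263 to 304 in null clones. The astrocyte marker sum was 97.3, 372 and 577 in the same control clones and 411 to 484 in null clones. Of its 10 markers, 4 to 9 were at 1 or more in control clones and 6 to 7 in null clones. Gja1, another of them, was at 0 in D7, D3, 3F and D6. The oligodendrocyte marker sum was 12324 in D7, 2470 in D3 and 2243 in E8, and 1947 to 2875 in null clones. From DIV2 to DIV4 the neural stem cell and astrocyte sums were higher in D3, E8 and all 3 null clones, and lower in D7. The mesenchymal marker sum was 20.5, 373 and 435 in the same control clones and 138 to 174 in null clones, with 1 of 10 genes at 1 or more. Vim, the only gene of this list among those tested, is also on the neural stem cell list, so these sums are not independent. The part of these values in the member levels was not tested.

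**Figure D5:**
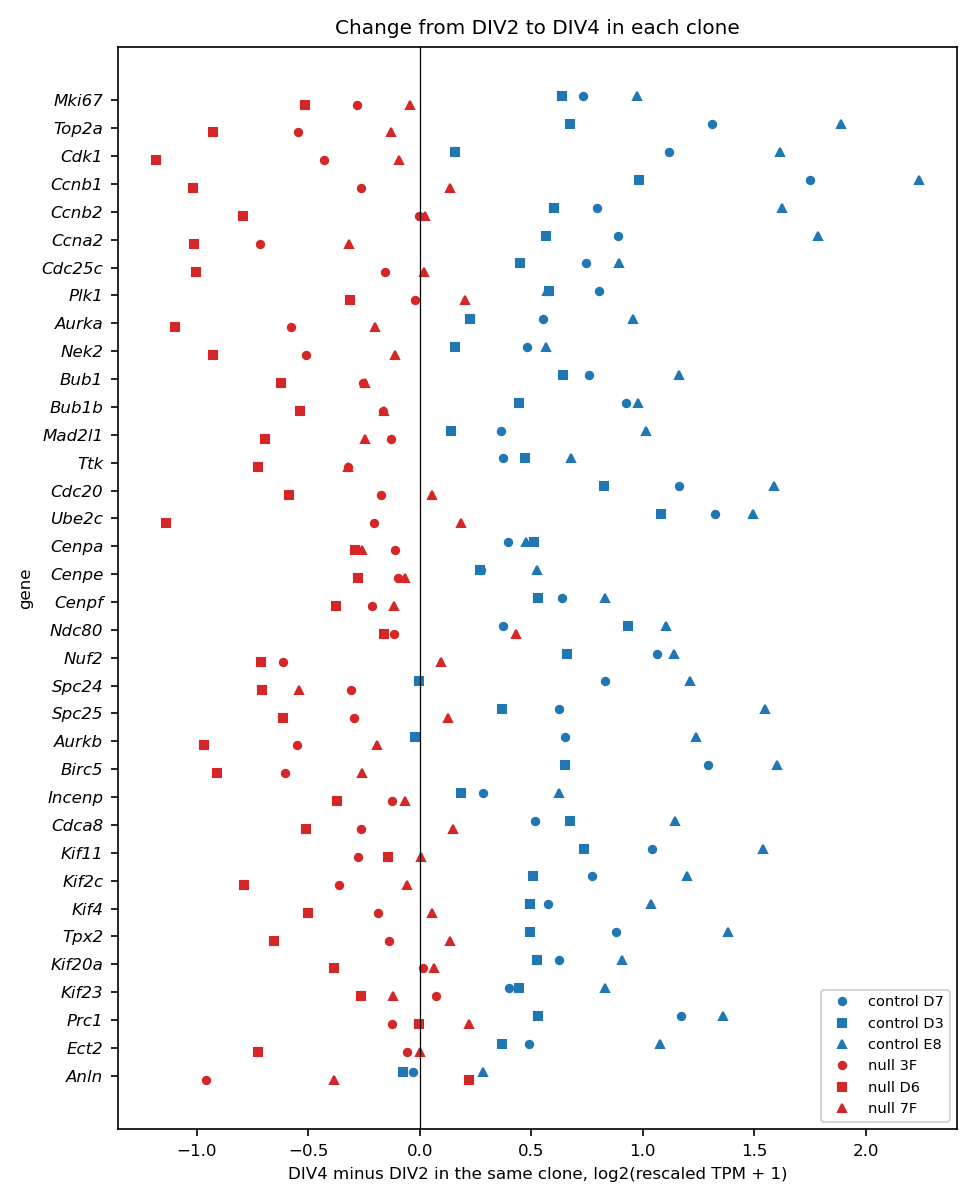
Change from DIV2 to DIV4 in each clone for each member on the log2(rescaled TPM + 1) scale, control clones in blue and null clones in red. Control points lie above 0 in all 3 clones for 33 members, and null points below 0 in all 3 for 18. Anln mixes both colours around 0.

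Between genotypes at one stage, no member passed the test in any comparison. In OPCs 35 of 36 fitted differences (null minus control) were positive, with a median of 0.72, 7 had an unadjusted p under 0.05, and the smallest adjusted p was 0.0841, where 11.9% of all genes were called. The direction changed without 1 library. Without the D3 OPC library the median was -0.23, 13 were positive, and 2 members were lower in null OPCs, Incenp by 1.27 (SE 0.16, adjusted p = 0.000391) and Plk1 by 0.74 (SE 0.17, adjusted p = 0.0092, limma), where 19.3% of all genes were called. On deposited TPM all 36 members were called higher in null OPCs, with a median of 2.45. There 88.1% of all genes were called, and the median of all genes was 1.49.

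At DIV2 all 36 differences were positive, with a median of 0.63, and 0 were called (2 at an unadjusted p under 0.05, smallest adjusted p = 0.270), where 3.18% of all genes were called. In a fit to the DIV2 libraries alone 25 members and 2853 of 10400 genes had an unadjusted p under 0.05. It called 0 members, with a smallest adjusted p of 0.0508 (limma). Of all genes it called 326 higher and 293 lower. Null clones lay above control clones without overlap in 19 members, among them Top2a, Ccnb1, Plk1, Cdc20, Ube2c, Ndc80, Aurkb, Birc5, Prc1 and Anln, against 16.1% of all genes. At DIV4, 35 were negative, with a median of -0.41, and only Anln was positive, at 0.42. None was called there (0 at an unadjusted p under 0.05), where 5.49% of all genes were. In a fit to the DIV4 libraries alone 12 members and 2100 of 10400 genes had an unadjusted p under 0.05. That fit called 0 members, with a smallest adjusted p of 0.108 (limma). Of all genes it called 97 higher and 81 lower. Null clones lay below control clones without overlap in 15 members, among them Mki67, Ccnb1, Plk1, Bub1, Bub1b, Ube2c, Cenpf and Kif11, against 13.6% of all genes. Ccnb1, Ccna2, Cdc25c, Plk1, Ube2c and Nuf2 were on both lists, higher in every null clone at DIV2 and lower in every null clone at DIV4.

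The change from OPC to DIV2 did not pass a test of difference between genotypes in any member (0 at an unadjusted p under 0.05), where 0.279% of all genes were called. The median difference was -0.19. From OPC to DIV4 the null change was more negative in 36 of 36, with a median of -1.40, and 0 were called (8 at an unadjusted p under 0.05, smallest adjusted p = 0.139), where 2.91% of all genes were. Both values moved with D3. Without its OPC library the median at DIV2 turned to 0.81, and Aurka, Cdc20, Incenp and Plk1 passed in the positive direction, a smaller fall in null clones, where 3.45% of all genes were called. At DIV4 the median was then -0.43, and Incenp (0.89) and Bub1 (-1.02) passed, where 9.3% of all genes were called (limma).

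Other genes of the pathway moved with the members. Of 109 further mitosis genes in the table, 106 were tested. Of these, 78 were called lower at control DIV2, 75 at control DIV4, 82 at null DIV2 and 88 at null DIV4, and 1, 0, 0 and 0 were called higher. Over all genes 18.7%, 17.7%, 15.6% and 18.7% were called lower in the same comparisons. By list at null DIV4, 7 of 8 condensin genes fell, with 28 of 33 centromere and kinetochore genes, 30 of 34 spindle and cytokinesis genes and 23 of 31 mitotic kinases and regulators. At control DIV4 the counts were 6, 24, 25 and 20. Kif18b, a spindle motor gene, fell by 2.40 at control DIV4 (SE 0.60, adjusted p = 0.0067) and by 2.51 at null DIV4 (SE 0.60, adjusted p = 0.00422, limma). Of 20 S phase genes tested, 14 fell at control DIV4 and 20 at null DIV4, among them the thymidine kinase gene Tk1 by 2.52 (SE 0.63, adjusted p = 0.00672) and 4.19 (SE 0.63, adjusted p = 0.000144, limma).

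Among 21 regulators of transcription tested, 8 fell and 3 rose at control DIV4, and 12 fell and 1 rose at null DIV4. Of all genes, 17.7% and 18.7% were called lower there, and 19.2% and 19.7% higher. Foxm1, whose product switches on G2 and M genes, was at 9.18, 0.533 and 12.01 in control OPCs and 7.71, 5.51 and 3.498 in null OPCs. Its levels were 0.507, 0.810 and 0.620 at control DIV4 and 0.298, 0.568 and 0.571 at null DIV4. Foxm1 was thus low in D3 OPCs too, and its fitted change was -1.84 (SE 0.54, adjusted p = 0.015) and -2.11 (SE 0.54, adjusted p = 0.006, limma) at control and null DIV4. Mybl2, the B-MYB gene, was at 5.57, 0.181 and 6.96 in control OPCs and 3.28, 3.47 and 2.24 in null OPCs, and changed by -1.40 (SE 0.49, adjusted p = 0.0352) and -1.38 (SE 0.49, adjusted p = 0.0355, limma) at DIV4. Rbl2, whose product p130 is part of the repressing DREAM complex, rose in control clones by 0.59 (SE 0.19, adjusted p = 0.0232) and was 0.41 higher in null clones at DIV4 (SE 0.19, adjusted p = 0.0955, limma), where the fit with the clone as replicate block gave an adjusted p of 0.0193. E2f1, an activator of S phase genes, was below the filter and was at 1.43, 0.00266 and 2.20 in control OPCs.

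Genes of arrest and G1 gave 2 falls and 0 rises among 8 tested at control DIV4, and 3 falls and 2 rises at null DIV4. Over all genes 17.7% and 18.7% were called lower and 19.2% and 19.7% higher, so these counts are near the background. Ccnd1 fell by 2.21 in control clones (SE 0.64, adjusted p = 0.0144) and by 2.97 in null clones (SE 0.64, adjusted p = 0.00193, limma). The genes that rose in null clones were Cdkn1a, the p21 gene, by 1.99 (SE 0.55, adjusted p = 0.00968) and Cdkn1b, the p27 gene, by 0.70 (SE 0.18, adjusted p = 0.00607, limma). Cdkn1a was at 4.00, 1.36 and 20.8 in control OPCs and 0.899, 0.769 and 1.30 in null OPCs, so D3 was the lowest control clone for this inhibitor. Cdkn1c, the p57 gene, below the filter, was at 0.275, 4.97 and 0 in control OPCs, and D3 was the highest of the 18 libraries.

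Pttg1 encodes securin, which holds back separase until anaphase. It was at 4.01, 1.16 and 3.57 in control OPCs and 69.4, 63.1 and 75.0 in null OPCs, a fitted difference of 4.25 (SE 0.39, adjusted p = 1.08e-05, limma), and at DIV4 it was at 8.43, 4.80 and 10.2 in control and 1.09, 1.73 and 3.80 in null clones. In null clones it was thus lower at DIV4 than in OPCs, as the members were, while every control clone was higher at DIV4 than in its own OPCs.

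A few genes held much of the sum. Top2a, Ccnb1, Ube2c, Cdk1 and Birc5 together held 33.3% to 41.0% of it in OPCs, D3 included at 34.98%, 23.3% to 37.8% at DIV2 and 27.7% to 32.7% at DIV4. Transcripts of member genes not annotated as protein coding held 12.2% to 16.0% of the members' TPM in OPCs and 13.6% to 20.0% later. Several members overlap a gene on the opposite strand, among them Ccna2 with Exosc9, Cdc20 with Elovl1, Ube2c with Tnnc2, Kif20a with Cdc23, Prc1 with Rccd1 and Kif4 with Pdzd11. The library kit keeps strand, and whether the quantification used it is not given in the sources used here, so reads of such pairs may not be separated.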

How the data were processed

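The deposited table gives TPM (length-corrected transcript abundance) for 93666 transcripts in 18 libraries, and a transcript length column, another kind of value that was used for nothing printed here. Libraries were made from total RNA with ribosomal RNA removed and strand kept, per the labels' protocols. STAR, Picard and the build mm10 are named in the submitters' processing notes, with no role. The quantifier and annotation are not given in the sources used here. Of the transcript IDs, 96.5% were found in GENCODE M21. TPM keeps no depth.

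Protein-coding transcripts were summed by gene symbol (22305 symbols) and divided by median-of-ratios factors from 12320 genes above 0 in every library. Genes with a mean of at least 1 were tested with limma 3.58.1 (R 4.3.3) on log2(rescaled TPM + 1) over 6 group means and all 18 libraries, with a mean trend and Benjamini-Hochberg adjustment over 10400 genes, called at 0.05. A log2 change on this scale understates the change of low genes. The fit was tested on simulated data. Other steps used Python 3.11.15, numpy 2.4.6, pandas 2.3.3 and matplotlib 3.10.9. An exact test of 3 against 3 clones cannot go below p = 0.1, so none is given.

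Groups came from the labels. Same-named libraries are the same clone, which pairs stages by design; the deviations of a clone at a pair of stages had mean correlations of 0.128 to 0.526. Alternatives were the scaling, pseudocount, filter, mean trend, libraries fitted, clone block, clones left out and transcripts summed. The members and lists were chosen with earlier results of these data known. Values by library are given for 16 members fixed by name, the 3 largest and 3 smallest changes to DIV4 in each genotype, and Pttg1; regulators were named by a fixed list, and from each other list at most 4 genes were to be named by size of change. The Nek2, Ttk and other ranges summarise the rest.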

Additional observations from a re-analysis of the deposited data

Results flagged for a closer look

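For 16 members and for the sum of all 36, the change from DIV2 to DIV4 was positive in all 3 control clones and negative in all 3 null clones. The same was true of 2.36% of the genes tested. A limma test of the difference called none of the 16 members, with a smallest adjusted p of 0.895 over the 36 members. The difference in the sum was not tested. The null minus control difference in mean log2 change was -2.09 for the sum. It was -1.83 for Top2a, -1.77 for Birc5, -1.76 for Ccna2 and -1.53 for Cdk1. Aurka, Bub1 and Kif2c differed by -1.20, -1.23 and -1.23, and Mki67 and Bub1b by -1.06 and -1.07. Ttk, Nek2, Cenpf and Mad2l1 differed by -0.96, -0.92, -0.90 and -0.86. The smallest differences of the 16 members were -0.68 for Cenpa, -0.55 for Incenp and -0.50 for Cenpe. Member values are on the log2(rescaled TPM + 1) scale, and the value for the sum is a plain log2 ratio. The added 1 understates the change of low genes. The order of these sizes therefore depends in part on level, and the sum cannot be ranked against the members.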

How the results depend on the processing

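The count of 35 members lower than in OPCs became 17 at control DIV2 and 0 at control DIV4 on deposited TPM, where 0.582% and 0.0469% of all genes were called lower. At control DIV4 it became 23 with protein-coding totals made equal (2.90% of all genes) and 0 in the fit to only the libraries compared (1.16%). A minimum mean of 5 left 21 members tested, of which 21 were lower in each of the 4 comparisons, against 15.8% to 22.0% of all genes. Leaving out 1 clone gave 29 to 36 at control DIV2, 3 to 36 at control DIV4, 30 to 34 at null DIV2 and 34 at null DIV4. It gave 0 between DIV2 and DIV4 in both genotypes. Between genotypes it gave 0 to 7 in OPCs, 0 to 3 at DIV2 and 0 to 3 at DIV4. For the differences of change it gave 0 to 2 from OPC to DIV2, 0 to 1 from OPC to DIV4 and 0 from DIV2 to DIV4. With all clones, 18.7%, 17.7%, 15.6% and 18.7% of all genes were called lower against OPCs. In control and null clones 0.25% and 2.88% were called between DIV2 and DIV4. The shares were 11.9%, 3.18% and 5.49% between genotypes, and 0.279%, 2.91% and 0.0% for the differences of change. The control DIV4 share also moved with the clone left out, as given above. The other shares of all genes with 1 clone left out are not given here, so those member counts have no background of their own. Members called between genotypes in OPCs were 36 on deposited TPM (88.1% of all genes), 4 with equal totals (22.4%) and 2 without the D3 OPC library (19.3%). For the differences of change from OPC to DIV2 and DIV4 they were 34 and 36 on deposited TPM (82.0% and 80.6% of all genes) and 4 and 2 without that library (3.45% and 9.3%). With the clone as replicate block 35 members stayed lower in each stage comparison, and of 46 single changes only Rbl2 in null clones changed its call. The mean log2 change of the control sum from OPC was -1.28 at DIV2 and 0.27 at DIV4 on deposited TPM. With 1 clone left out it was -5.43 to -3.22, -3.58 to -1.73 and, from DIV2 to DIV4, 1.21 to 1.85, and in null clones -4.02 to -3.49, -4.58 to -4.03 and -0.81 to -0.36. On deposited TPM, members without overlap were 14 for control DIV4 above DIV2 (2.83% of all genes), 7 for null above control at DIV2 (6.11%) and 3 for null below control at DIV4 (10.6%), which was 6 with equal totals (9.66%); these settings were chosen after seeing the data. CHR matches before the start were in 16 of 31 windows (51.6%, against 25.2% of all), and both elements in 14 (45.2%, against 8.78%). On deposited TPM the control change from OPC was positive in 2 of 36 members at DIV2 and in 25 at DIV4. Of the 10656 genes tested on that scale, 10373 and 10580 were positive. Reversed values included 0.87 and 0.98 for Anln and 0.17 and 0.78 for Mad2l1 at DIV2 and DIV4. At DIV4 they also included 0.32 for Bub1, 0.10 for Mybl2 and 0.43 for Ccnd1. Thap1 in null OPCs reversed to 0.76 with all transcripts summed. Deposited TPM are used without the median-of-ratios factors, which were 0.127 to 0.324 in control OPC libraries and 0.727 to 2.05 elsewhere. The cause of these changes was not tested.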
